A study of Mus musculus with 6 samples.

Results

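The neighbours of Ctnnb1, the gene for beta-catenin, were taken as the genes that start on mouse chromosome 9 between 110 and 124.6 Mb in the reference gene table of assembly GRCm38.p6, where a start is the lower coordinate of the gene. Ctnnb1 itself, Cx3cr1 and the ribosomal protein genes of this stretch were left out. On the array 145 such genes had at least 1 probe set with a single symbol, of 18193 genes in all, and they were read by 269 probe sets. They start from 10.85 Mb before Ctnnb1 (written below as -10.85) to 3.54 Mb after it. The window so reaches much farther toward the centromere (proximal, 93 genes) than toward the chromosome end (distal, 52 genes).

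Genes close together on a chromosome are inherited together, because crossovers between them are rare. A targeted allele is therefore bred through a colony with the stretch of chromosome on either side of it, and the neighbours of a floxed gene are a natural place to look when 2 groups of mice differ at that gene. Neighbouring genes seldom share a function, and the stretch around Ctnnb1 holds chemokine receptors, receptors of the TGF-beta family, Golgi and mitochondrial proteins, kinases, phosphatases and zinc-finger factors.

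The study compared 6 single-colour Affymetrix arrays of whole mouse kidneys at embryonic day 12.5. The normal group (n = 3) carries no allele or agent named in the labels, and the knockout group (n = 3) carries a beta-catenin allele with loxP sites around exons 2 to 6 and a Hoxb7-Cre:Gfp transgene, whose promoter drives Cre in the ureteric bud, the epithelium of the later collecting ducts. Dissected kidneys were divided at random over 3 vials per group. How many animals each vial held is not given, and the spread behind each p-value is that among vials, which may be technical in part. The labels name no strain for either group, and which alleles the kidneys carried at the neighbouring genes was not tested. The description field says normal for all 6 samples, including the 3 whose title and source name say knockout, and every direction below follows the titles. In whole kidneys, fewer cells of a type and less RNA per cell cannot be told apart.

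Of 15 kidney markers, among them Six2, Wt1, Ret and Foxd1, 14 were measured and all 14 were bright enough to be tested, with a summed signal between 7171 and 7796 on the 6 arrays. Skeletal muscle markers (13 of 13 measured, 0 of them at 0 on all arrays) summed to between 658 and 742.5 on the normal arrays but to 1535, 7083 and 856 on knockout arrays 1 to 3. Erythroid markers (9 of 11 measured) summed to between 12620 and 18181 on normal and between 15808 and 22184 on knockout arrays. Chromaffin and sympathetic markers (11 of 12 measured) summed to 2334, 612 and 793.5 on normal arrays 1 to 3 and to 1691, 995 and 707 on knockout arrays 1 to 3. The 3 probe sets of Ctnnb1 differed by 0.09, 0.12 and 0.16 on the log2 scale, higher in the knockout. None passed the test (limma adjusted p from 0.601 to 0.695), so array signal does not show the deletion. Where these probe sets lie relative to the exons between the loxP sites was not examined, so their signal is no measure of the deletion.

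Values below are MAS5 signals, and differences are knockout minus normal on the log2 scale, with the standard error (SE) of the limma fit. A probe set was called changed at a Benjamini-Hochberg adjusted p under 0.05 over all 27022 probe sets kept. A probe set was kept where its mean log2 signal over the 6 arrays lay above the level that equals a signal of 14.7. Of the neighbours' probe sets 169 were kept, for 96 of the 145 genes. The other 49 genes had no probe set above that level.

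Of the 169 neighbouring probe sets 2 were called changed (1.18%), both lower in the knockout. The share called was 0.581% over all probe sets tested and 1.13% on the rest of chromosome 9, close to that of the neighbours. The 2 called belong to Limd1, a LIM-domain scaffold protein, and Lars2, the mitochondrial leucyl-tRNA synthetase. An unadjusted limma p under 0.05 was reached by 23 of the 169 (13.6%), close to the 11.5% over all probe sets. Counted by each gene's brightest probe set, it was reached by 17 of 96 genes, against 11.7% of all genes tested. Neither share was tested against its background. Of the 23, 19 lay within 5 Mb of Ctnnb1, as did 102 of the 169 probe sets kept.

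The sequences around the annotated starts of 3 of these genes are shown because their probe sets were among the lowest in p of the window. They come from RefSeq, build GRCm38.p6, on each gene's own strand, 5′ to 3′, with 250 bases before the start in lower case and the 50 bases from the start on in capitals. Ctdspl lies on the plus strand at chr9:118926286-118926585, Lars2 on the plus strand at chr9:123366677-123366976 and Lztfl1 on the minus strand at chr9:123717576-123717875. For Limd1 there was no entry.
Ctdspl: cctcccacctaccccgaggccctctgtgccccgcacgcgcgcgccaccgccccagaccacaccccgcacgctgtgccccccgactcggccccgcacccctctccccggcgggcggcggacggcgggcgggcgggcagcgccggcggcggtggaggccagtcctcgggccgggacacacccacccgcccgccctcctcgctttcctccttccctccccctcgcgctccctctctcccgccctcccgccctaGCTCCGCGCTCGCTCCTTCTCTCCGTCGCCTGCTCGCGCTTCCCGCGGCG
Lars2: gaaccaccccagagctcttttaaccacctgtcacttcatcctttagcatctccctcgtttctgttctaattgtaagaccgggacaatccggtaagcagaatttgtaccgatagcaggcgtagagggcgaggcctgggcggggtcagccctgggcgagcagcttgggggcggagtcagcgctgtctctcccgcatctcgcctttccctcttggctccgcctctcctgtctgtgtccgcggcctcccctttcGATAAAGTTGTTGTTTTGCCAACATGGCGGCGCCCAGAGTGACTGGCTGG
Lztfl1: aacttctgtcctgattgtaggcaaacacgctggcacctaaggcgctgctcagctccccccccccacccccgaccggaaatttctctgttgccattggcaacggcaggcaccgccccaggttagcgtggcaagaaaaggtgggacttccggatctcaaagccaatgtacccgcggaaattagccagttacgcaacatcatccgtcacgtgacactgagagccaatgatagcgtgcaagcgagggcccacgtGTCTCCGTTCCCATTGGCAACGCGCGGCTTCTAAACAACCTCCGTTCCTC

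All 3 windows were rich in G and C, with 79.3% for Ctdspl, 58.3% for Lars2 and 57.7% for Lztfl1, against a median of 52.7% over 32851 RefSeq windows of this length. They held 43, 18 and 21 CG dinucleotides respectively, where the median window held 7. The core word bound by TCF/LEF factors, the DNA-binding partners of beta-catenin, was searched on both strands as CTTTGAA or CTTTGAT or CTTTGTA or CTTTGTT. None of the 3 windows held it, which says only that these letters are not in this stretch. It stood in 16.9% of all windows and in 24 of the 168 windows of neighbouring genes (14.3%), from the 131 of 145 genes that had a window.

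Limd1 and Lars2 start 2.55 and 2.43 Mb distal to Ctnnb1 and are next to each other among the neighbouring genes measured. Limd1 read 447, 408 and 384 on normal arrays 1 to 3 and 274, 212 and 260.5 on knockout arrays 1 to 3. Every knockout array lay below every normal one. The mean signal of Limd1 was 413 ± 31.7 in normal and 249 ± 32.3 in knockout kidneys (SD, n = 3 each), and on the log2 scale it fell by 0.74 (SE 0.12; limma adjusted p = 0.0425). The other probe set of Limd1 that passed the filter differed by -0.24 and overlapped between groups.

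Lars2, which charges mitochondrial tRNA with leucine, read 263, 263.5 and 300.3 on the normal arrays and 169, 119 and 159 on the knockout arrays. The groups did not overlap here either. The mean signal of Lars2 was 276 ± 21.3 in normal and 149 ± 26.4 in knockout kidneys (SD, n = 3 each), and on the log2 scale it fell by 0.90 (SE 0.15; limma adjusted p = 0.0437). The second kept probe set of Lars2, a dimmer one, differed by -0.48 with knockout arrays again below all normal ones, and did not pass. Neither call held when any 1 of the 6 arrays was left out. The adjusted p by limma then ran from 0.0851 to 0.153 for Limd1 and from 0.0793 to 0.128 for Lars2, while Limd1 stayed between -0.81 and -0.63 and Lars2 reached -0.75 at its smallest.

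**Figure D1:**
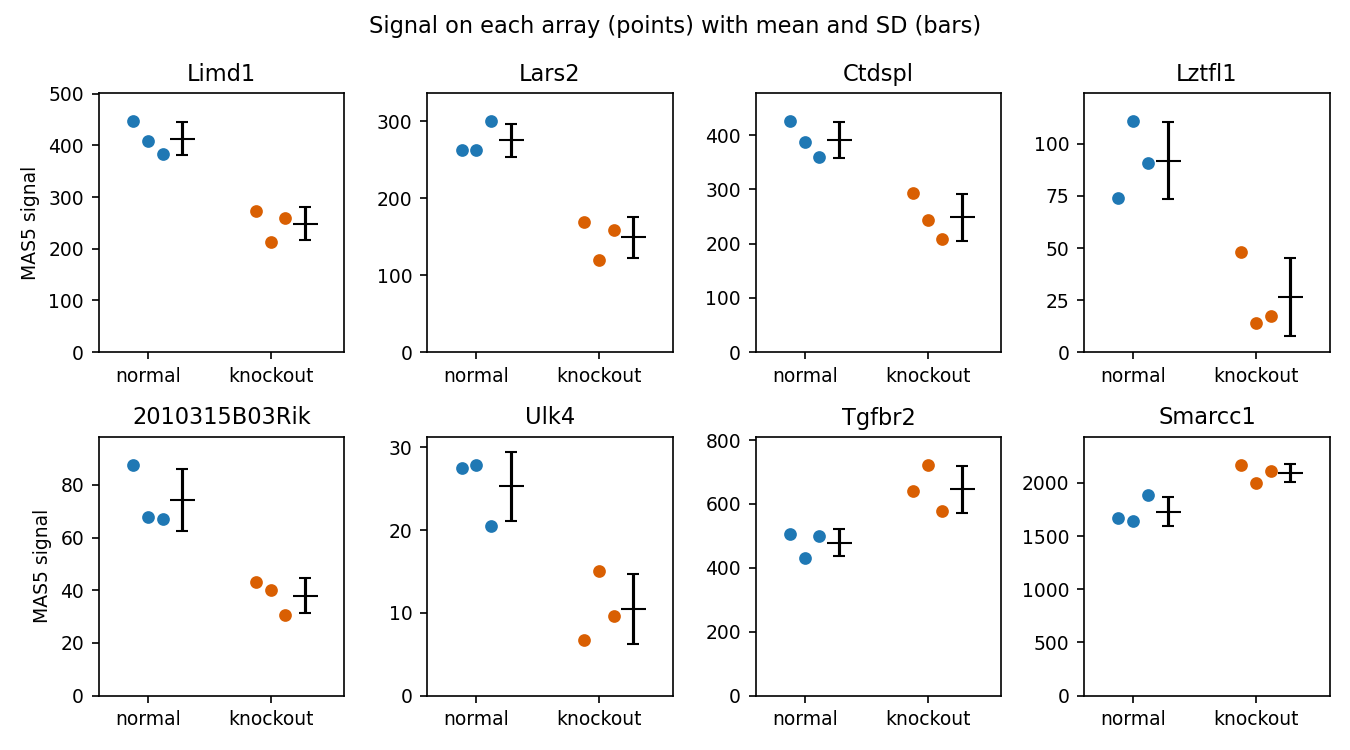
MAS5 signal (vertical axes, linear, from 0) of the probe set with the smallest p of 8 neighbouring genes, on 3 normal and 3 knockout arrays (points), with the mean and SD of each group (bars). In all 8 panels the knockout points lie wholly on one side of the normal points, below them for 6 genes and above them for Tgfbr2 and Smarcc1.

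Around these 2 genes the neighbours were mixed. Sacm1l, a phosphatase of the endoplasmic reticulum and Golgi that starts 2.60 Mb from Ctnnb1, differed by -0.06 (SE 0.13) with overlapping groups. Tmem158, at 2.33 Mb, had kept probe sets at 0.13, 1.09 and -0.51, of which none passed. The probe set at 1.09 had a normal mean of 12.6, under the level set for testing. Lztfl1, at 2.76 Mb, encodes a regulator of protein traffic into cilia, and its probe sets disagreed. The probe set with the smallest p read 74.2, 111 and 90.8 on the normal arrays and 48.0, 13.9 and 17.5 on the knockout arrays, a difference of -2.0 (SE 0.43; limma adjusted p = 0.112). A further one read 70.2, 63.4 and 92.3 against 36.6, 42.6 and 39.9, a difference of -0.91 (SE 0.21; limma adjusted p = 0.148). Groups were apart for both, but the brightest Lztfl1 probe set, with a mean signal of 400.3, differed by 0.10 (SE 0.13), and another by -0.26. Of the knockout values at the first probe set, that of 13.9 is dimmer than the level set for testing, which makes the size of this difference uncertain. Without knockout replicate 1 it was -2.54 and passed (limma adjusted p = 0.0229), and with any other array left out it did not.

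2010315B03Rik, a gene near the distal end at 3.36 Mb whose role is not described here, read 87.7, 67.7 and 67.0 in normal and 43.2, 40.2 and 30.7 in knockout kidneys. The groups were apart, and the difference was -0.97 (SE 0.22; limma adjusted p = 0.140). Between it and Lztfl1, Fyco1, an adaptor of autophagic vesicles, had probe sets at 0.13 and -0.33 with overlapping groups. Nearer to Ctnnb1, at 1.00 Mb, 1700048O20Rik read 35.8, 61.8 and 57.9 in normal and 34.0, 31.2 and 18.6 in knockout kidneys. Its groups were apart by a small margin, and the difference was -0.90 (SE 0.33; limma adjusted p = 0.370).

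**Figure D2:**
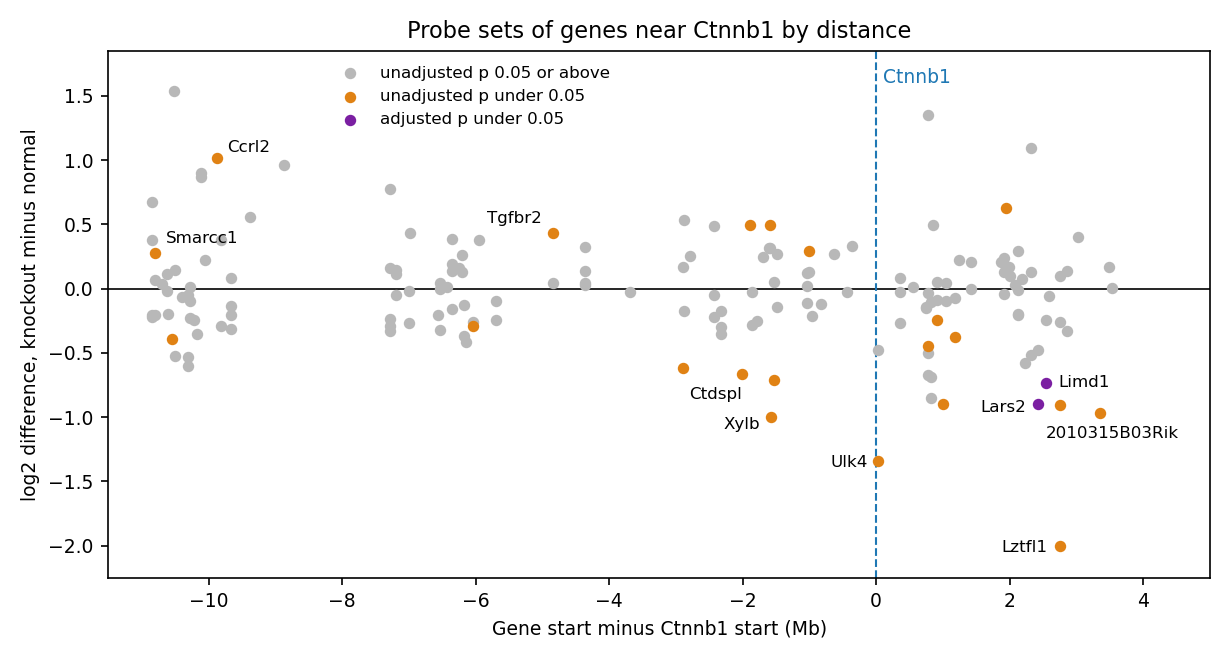
Log2 difference of knockout minus normal kidneys (vertical axis) for each of the 169 kept probe sets of neighbouring genes, against the distance of the gene's start from that of Ctnnb1 in Mb (horizontal axis, proximal to the left). Purple points passed the adjusted threshold, orange points had an unadjusted p under 0.05, and grey points had neither; the 2 purple points, Lars2 and Limd1, lie at 2.43 and 2.55 Mb, and orange points are sparse beyond 5 Mb.

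By distance, an unadjusted limma p under 0.05 was reached by 11 of 57 probe sets within 2 Mb of Ctnnb1 (19.3%), by 8 of 45 between 2 and 5 Mb (17.8%) and by 4 of 67 beyond 5 Mb (5.97%). On the rest of chromosome 9 it was 11.7% of 1061 probe sets. The difference between near and far neighbours was not tested. The share within 5 Mb, 18.6%, was above that of all probe sets in each of the 17 alternative fits. The share beyond 5 Mb moved more, to 13.6% without normal replicate 3, to 10.6% without normal replicate 1 or 2 and to 1.56% without knockout replicate 1. Without the first array of each group it was 1.54%. It also depended on filter and scaling, at 11.9% with the filter at the 60th percentile and 10.6% with quantile normalization. With no filter on dim probe sets the gap was much smaller, at 23 of 161 probe sets within 5 Mb (14.3%) and 13 of 108 beyond. The far share stayed under the near share in each of the 17 alternative fits.

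Groups that do not overlap were seen for 43 of the 169 neighbouring probe sets (25.4%), 23 with the knockout lower and 20 with it higher, against 17.9% of all probe sets. The share was 28.1% within 2 Mb, 31.1% between 2 and 5 Mb, 19.4% beyond 5 Mb and 19.5% on the rest of chromosome 9. Over all probe sets with 1 symbol it was 18.1%. Among these it ran from 14.2% to 21.7% over the autosomes and the X chromosome, taken whole. Those chromosomes hold far more probe sets than the window, so their shares vary less.

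The size of the differences, regardless of sign, had a median of 0.227 among the neighbours and 0.174 over all probe sets. Over probe sets with 1 symbol it was 0.163, and among these between 0.142 and 0.178 on whole chromosomes. Dim probe sets scatter more, so the comparison was also made in 3 equal groups of mean signal. The median size was 0.375 among the neighbours and 0.294 over all probe sets in the dimmest group, 0.215 and 0.179 in the middle one, and 0.171 and 0.107 in the brightest. Beyond 5 Mb from Ctnnb1 the median size was 0.227, as large as within 2 Mb (0.225). The signed median was -0.026 for the neighbours and -0.011 for all probe sets, and 91 of the 169 were lower and 78 higher.

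**Figure D3:**
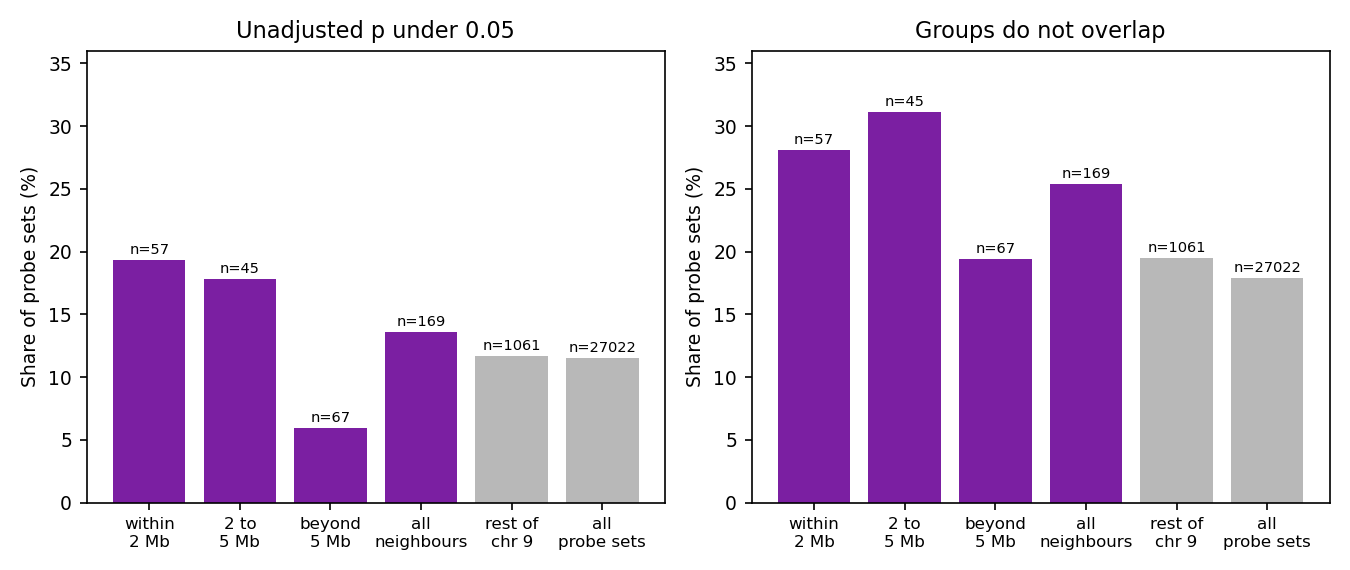
Share of probe sets (vertical axes, percent, from 0) with an unadjusted limma p under 0.05 (left) and with knockout and normal arrays that do not overlap (right). Purple bars are the neighbours of Ctnnb1 by distance and in all, grey bars the rest of chromosome 9 and all probe sets kept, with the number of probe sets above each bar; the left share is 19.3% within 2 Mb and 5.97% beyond 5 Mb.

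Direction differed by side in these counts, a division made after the values were seen and not tested. Distal to Ctnnb1, 10 of 60 probe sets were lower with an unadjusted p under 0.05 (16.7%) and 1 was higher. Proximal to it, 6 of 109 were lower (5.50%) and 6 higher. The proximal side reaches much farther, so side and distance are mixed in these counts. Within 5 Mb on the proximal side, 4 of 42 were lower (9.52%) and 4 higher. Over all probe sets, 5.72% were lower and 5.74% higher at that level. The 10 distal ones belong to 9 genes: Ulk4, Nktr, Higd1a, 1700048O20Rik, Snrk, Lars2, Limd1, Lztfl1 with 2 probe sets, and 2010315B03Rik. With 1 array left out the count ran from 7 to 11 (11.7% to 18.3%), against 3.83% to 6.45% over all probe sets. With only the brightest probe set of each gene it was 6 of 34 genes, against 5.57% of all genes. With the filter at the 60th percentile it was 5 of 38 (13.2%), against 6.43% over all probe sets.

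For the 6 measured genes nearest to Ctnnb1 on each side, 3 of 20 probe sets had an unadjusted limma p under 0.05, where 11.5% of all probe sets did, and 0 were called. Ulk4, a kinase-like protein without typical kinase residues, is the next gene on the distal side. One of its probe sets read 27.5, 27.9 and 20.5 in normal and 6.7, 15.1 and 9.6 in knockout kidneys, a difference of -1.34 (SE 0.41; limma adjusted p = 0.289). The groups were apart, though 2 of the knockout values and their mean of 10.5 are under the filter level. This probe set passed the filter only through its normal values, yet it is counted here and among the distal falls. The size of its difference is therefore uncertain. The other Ulk4 probe set overlapped, at -0.48. Farther out, Trak1, an adaptor that carries mitochondria along microtubules, differed by 0.08, -0.27 and -0.03 at 3 probe sets, and the peptide hormone gene Cck by 0.01.

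Sec22c, a protein of vesicle traffic, differed by -0.14 and -0.15, and Ss18l2 by -0.03. Nktr, a large cyclophilin, had 4 kept probe sets. One read 394, 302 and 324 against 282, 250.2 and 215, a difference of -0.45 (SE 0.14; limma adjusted p = 0.303) with the groups apart. Others stood at -0.50 and -0.67, and the dimmest at 1.35 (SE 1.29), where normal array 2 read 1.1 beside 52.3 and 50.2.

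On the proximal side, 5830454E08Rik differed by 0.33, the translation initiation factor gene Eif1b by -0.03 with a narrow 95% interval from -0.25 to 0.20, and Myrip, a linker of myosin to secretory granules, by 0.27. The glycine carrier gene Slc25a38 of the mitochondrial membrane differed by -0.12 and Csrnp1 by -0.22. Gorasp1, which stacks Golgi cisternae, read 111, 114.5 and 111 in normal and 136, 131.5 and 145 in knockout kidneys at 1 probe set. The groups were apart, with a difference of 0.29 (SE 0.13; limma adjusted p = 0.434), and its other probe set overlapped at 0.13.

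**Figure D4:**
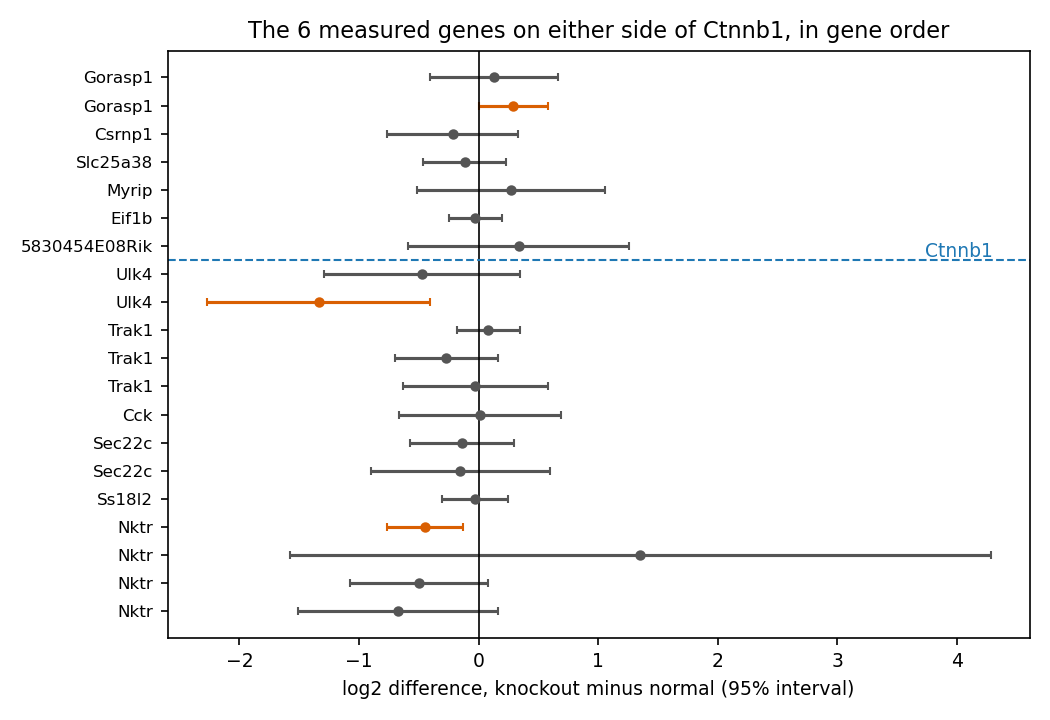
Log2 difference of knockout minus normal kidneys with its 95% interval (horizontal axis) for each kept probe set of the 6 measured genes on either side of Ctnnb1, listed from proximal (top) to distal (bottom). Orange marks an unadjusted limma p under 0.05, seen for 1 probe set each of Gorasp1, Ulk4 and Nktr; the other 17 intervals include 0.

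Among phosphatases and kinases, 7 genes were kept, and 9 of their 11 probe sets were lower in the knockout, with a median of -0.38 and 0 past the adjusted threshold. Ctdspl, a phosphatase of the family that acts on RNA polymerase II, starts 2.01 Mb proximal to Ctnnb1. It read 426, 387 and 360 in normal and 293, 244 and 208 in knockout kidneys. The groups were apart, with means of 391 ± 32.9 and 248.5 ± 42.7 (SD, n = 3 each), a difference of -0.67 (SE 0.14). It missed the threshold at a limma adjusted p of 0.106. Snrk, a kinase related to AMPK, differed by -0.38 and, at its brighter probe set, by -0.08. Ptpn23, a phosphatase-like protein of endosomal sorting at -10.55 Mb, differed by -0.39 with the groups apart.

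Of the TGF-beta family receptors and related genes, 2 of 4 were kept. Tgfbr2, the type II TGF-beta receptor, read 507, 430.0 and 499.8 in normal and 640, 723 and 576 in knockout kidneys. All knockout arrays were above all normal ones, and the difference was 0.43 (SE 0.11; limma adjusted p = 0.206). The other kept probe set of Tgfbr2, a dimmer one, differed by 0.04 with overlapping groups. Acvr2b, a type II receptor for activins, read 627, 440.1 and 313.4 against 271, 234 and 313.2, a difference of -0.71 (SE 0.23; limma adjusted p = 0.311). Its groups were apart by 0.2 signal units at the closest, and another probe set differed by 0.05. Eomes and Tdgf1, genes of early embryonic patterning, lay under the filter.

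Among chromatin and DNA repair genes, 4 genes with 9 probe sets were kept, with a median of 0.02. Smarcc1, a core subunit of the BAF remodelling complex, read 1668, 1638 and 1885 in normal and 2170, 1998.5 and 2106 in knockout kidneys. The groups were apart, with a difference of 0.28 (SE 0.08; limma adjusted p = 0.271), while its other 2 kept probe sets stood at 0.07 and -0.20 with overlapping groups. Exog, a mitochondrial nuclease, differed by 0.27 with the groups apart and by -0.14 at its other kept probe set, where the groups overlapped. For genes of RNA processing and translation, all 9 listed were kept; 13 of 23 probe sets were higher and 10 lower, with a median of 0.03, and Lars2 was the 1 called.

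Golgi and vesicle genes were all kept, 14 of 14, with 21 of 32 probe sets lower, a median of -0.12 and 0 called. Mitochondrial and lipid genes (11 of 12 on the array kept) had a median of -0.01 and 0 called. Xylb, which phosphorylates xylulose, read 58.6, 36.4 and 30.0 against 18.3, 22.9 and 19.2, a difference of -0.997 (SE 0.32; limma adjusted p = 0.311) with the groups apart. Gpd1l, a relative of glycerol-3-phosphate dehydrogenase, read 183, 205 and 185 against 156.4, 156.1 and 155.6, a difference of -0.29 (SE 0.11). Higd1a, a mitochondrial inner membrane protein, differed by -0.25 at its brightest probe set and by 0.05 and -0.09 at the others. Acaa1a, a thiolase of peroxisomal fat oxidation, was higher by 0.49 at 1 probe set and 0.31 at another.

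Transcription factors and their partners numbered 7 kept genes with 12 probe sets, a median of -0.03 and 1 call, that of Limd1. Zkscan7, a zinc-finger gene at 1.95 Mb, read 32.1, 34.2 and 26 against 52.6, 49.1 and 40.5, a difference of 0.62 (SE 0.24; limma adjusted p = 0.388), and was the only distal probe set higher with an unadjusted p under 0.05. For microtubule and motor genes, 3 of 8 genes on the array were kept and the 7 differences lay between -0.27 and 0.16. Trak1 and Clasp2, a protein of microtubule tips at 0.14, had the smallest p. Adhesion and matrix genes (4 of 6 kept) were lower at 5 of 6 probe sets with 0 called, among them Cdcp1, a transmembrane glycoprotein, at -0.58 and the integrin chain Itga9 at -0.30.

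Channels, hormones and receptors were mostly under the filter, with 5 of 12 genes kept and 0 called. The parathyroid hormone receptor Pth1r differed by -0.24 and Cmtm8 by -0.41, both with the groups apart. Outside the lists, Vill, a villin-like actin-binding protein, read 72.7, 74.3 and 68.4 against 110, 91.9 and 102, a difference of 0.50 (SE 0.16; limma adjusted p = 0.301) with the groups apart. Stt3b, a catalytic subunit of the enzyme that attaches N-glycans, differed by -0.10 (SE 0.07) at a mean signal of 2426. Azi2, an adaptor of the kinase TBK1, differed by -0.62 at a dim probe set and by 0.16 at its bright one.

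Chemokine receptors cluster near the distal end of the window, and 9 of the 11 on the array were under the filter. The 2 kept were dim. Ccrl2, an atypical receptor that lies proximally at -9.88 Mb, read 14.2, 9.3 and 10.2 in normal and 25.7, 20.8 and 20.8 in knockout kidneys, a difference of 1.02 (SE 0.36; limma adjusted p = 0.357) with the groups apart. All normal values of Ccrl2 are under the filter level, so its mean passed the filter only through the knockout values. The size of its difference is therefore uncertain. Ccr1 differed by 0.40 with overlapping groups, and its normal mean of 14.6 also lies under the filter level. Macrophage markers (12 of 12 measured, 0 of them at 0 on all arrays) summed to 1125, 509.5 and 884 on the normal arrays and to 1057, 1508.5 and 1119 on the knockout arrays, so those groups overlapped. The chemokine receptor gene Cx3cr1, left out of the neighbours and carried by macrophages, differed by 0.93 with the groups apart and by 0.62 with overlap, and neither passed. The part of macrophage content in the chemokine receptor values was not tested.

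Of the muscle and neural genes, 4 of 7 were kept with 1 probe set each, 3 higher and 1 lower in the knockout, and 0 were called. Klhl40, a stabiliser of sarcomere proteins, read 2.6, 31.0 and 3.1 on knockout arrays 1 to 3 and at most 2.2 on the normal arrays, all but 1 value under the filter level. Knockout array 2 also had the highest summed signal of the muscle markers. Arpp21, a phosphoprotein of neurons, read 22.0, 65.0 and 11.0 against 15.8, 10.5 and 12.8, a difference of 0.96 (SE 0.60) with overlapping groups. Stac, an adaptor with an SH3 domain, differed by 0.55 with overlapping groups. The normal means of Arpp21 and Stac, 13.0 and 14.1, lie under the filter level. Both passed the filter only through their knockout values, so the count of 3 higher depends in part on the filter. Myl3, a myosin light chain of slow and heart muscle, read 9.2, 18.1 and 23.7 on the knockout arrays against 14.9, 21.2 and 25.9, a difference of -0.35 (SE 0.44) with overlapping groups. The part of muscle content in these values was not tested.

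Several neighbours were read by probe sets that went opposite ways. Of the 46 genes with more than 1 kept probe set, 26 (56.5%) had differences of both signs, against 52.3% of 6085 such genes over the array. Dhx30, an RNA helicase, stood at 0.67 and 0.37 at a pair of probe sets and at -0.21 and -0.22 at the other two. Lrrfip2 stood at -0.29 and 0.37, both with the groups apart. Golga4, a golgin, stood at -0.22, 0.49 and -0.05. The 22 genes with a probe set at an unadjusted p under 0.05 had 19 further kept probe sets at 14 genes, of which 6 had the opposite sign.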

How the data were processed

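The authors deposited 1 linear signal intensity per probe set for each of the 6 arrays, made with MAS5 per the submitters' processing notes; its version is not given in the sources used here. Array medians ran from 24.9 to 32.1, and no further scaling was applied. Before taking log2, the 15 values of 0 were replaced by 1.7 (10th percentile of values above 0). The 64 control probe sets were left out, and probe sets with a mean log2 signal above the 40th percentile (27022) were kept.

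Probe sets were named from GEO's platform annotation, with symbols brought up to date by gene identifier. Of 45037 probe sets 34945 had 1 symbol, 932 several and 9160 none here, and 70 with 1 symbol had no position in the gene table. The array values carry no genome build, so distances are those of genes in GRCm38.p6.

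Groups were compared across all kept probe sets with limma 3.58.1 in R 4.3.3 (lmFit, eBayes with intensity trend), with Benjamini-Hochberg adjustment. The fit was tested on simulated data. The number of arrays limits the precision. The neighbours, the 12 role lists, the marker lists and the tests were chosen with earlier results of these data known. Genes named are those called, the largest differences with an unadjusted p under 0.05 and groups apart, the 6 measured genes on either side of Ctnnb1 and the 2 with the smallest p in each role list; Sacm1l, Tmem158, Fyco1, Stt3b, Klhl40, Myl3, Dhx30, Lrrfip2, Golga4, Higd1a, Snrk, Ptpn23, Azi2, Ngp and Ltf were added after their values were seen. Of the genes in the role lists, 12 are not analysed here, and 44 neighbours are in no list. Alternatives covered scaling, low values, the filter, the variance model, the replicate number as a block, narrower windows, 1 probe set per gene and leaving out arrays.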

Additional observations from a re-analysis of the deposited data

How the results depend on the processing

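The 2 calls became 0 without the intensity trend and with the replicate number as a block. With each array left out in turn there was 1 call or 0, and never Limd1 or Lars2. Without knockout replicate 1 the call was Lztfl1. With each array centred on its median there were 3 calls, Lars2 (limma adjusted p = 0.0213), Lztfl1 (3.43e-05) and 2010315B03Rik (0.0352), and Limd1 was not among them (0.0878). They became 1, with 15 probe sets at an unadjusted p under 0.05, without the first array of each group (chosen after seeing the data for their chromaffin and neural genes), and 0, with 12, without the first 2 knockout arrays (chosen for muscle genes; the lone knockout array is assumed to vary like the normal ones). Within 2 Mb of Ctnnb1 the counts were 0 and 11, there being fewer probe sets. With no filter on dim probe sets 36 of 269 probe sets reached an unadjusted p under 0.05 (13.4%), against 9.06% of all probe sets. The median size of difference was then 0.324, and its value over all probe sets is not given here. With each array left out in turn the signed median ran from -0.071 to 0.030, so its direction rests on normal replicate 1. Where no value shows it, the cause was not tested. The share of neighbours at an unadjusted p under 0.05 was above that of all probe sets in 16 of 17 alternative fits, the exception being the fit without the first array of each group (8.88% against 9.45%).

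Same-numbered arrays shared little deviation from their group means over all kept probe sets (correlations of 0.083, -0.108 and -0.201). With 3 arrays per group this cannot decide whether the numbers pair the samples. With the replicate number as a block, 19 neighbouring probe sets had an unadjusted limma p under 0.05. Of 737 alternative values for the named probe sets, 687 kept direction and side of the threshold, 21 lost the call (all of Limd1 or Lars2), 4 gained it (3 of Lztfl1 and 1 of 2010315B03Rik) and 25 changed sign without a call. Signal near the floor limits what can be said of dim probe sets.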

Other observations

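Genes for granule proteins of neutrophils lie at the proximal end of the window. Ngp read 55.4, 4.8 and 22.1 on normal arrays 1 to 3 and 106.5, 66.9 and 20.3 on knockout arrays 1 to 3, a log2 difference of 1.54 (SE 0.87) with overlapping groups. Ltf, the gene for lactoferrin, lay under the filter, at 34.6, 2.1 and 1.7 on the normal and 42.0, 1.9 and 8.3 on the knockout arrays. Both genes were highest on knockout array 1.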
